A study of Glycine max with 4 samples.

Results

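Chains of close binding sites were examined in soybean (Glycine max) embryos, where a chain is a run of 3 or more sites whose neighbours lie at most 2000 bp apart. The sites came from chromatin immunoprecipitation followed by sequencing (ChIP-seq) with an antibody that targets the GLYMA.13G317000 protein. A site was counted as shared when a peak of replicate 1 and a peak of replicate 2 were each other's largest overlap, and it was placed halfway between their summits, the bases with the highest read pileup. Of 44959 shared sites, 4616 (10.3%) lay in 1383 chains, 10500 lay in 5250 pairs, and 29843 (66.4%) had no shared site within 2000 bp and are called single sites here. The members were chosen by the positions of the called peaks in both replicates, so all values of chains against single sites are descriptions, and none of them was tested.

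All groups were mid-maturation embryos of the cultivar Williams 82, dissected from seeds of 200 to 250 mg and crosslinked for 10 minutes in 1% formaldehyde. The ChIP group had 2 samples, precipitated with 2 µg of antibody against a peptide that matches amino acids 1 to 15 of the protein, and the input group had 2 samples of sonicated chromatin without antibody. The series' design text calls the replicates biological, the sources used here do not give the number of embryos per sample, and nothing here tested how specific the antibody is. The deposited lists held 48191 peaks in replicate 1 and 62340 in replicate 2, with summit pileups of 12 to 316 and 11 to 332 reads. Coordinates follow the lists, 1-based, and since the sources used here name no genome build, no gene or sequence was read at the sites.

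During maturation a seed embryo stops dividing and fills with storage protein and oil, a programme that transcription factors switch on by binding the DNA near their target genes. In plants as in animals, regulatory DNA often holds several binding positions close together, and such a run is known as a regulatory module. In ChIP-seq each separately bound position gives a peak about as wide as the sequenced fragments, and positions closer than that merge into 1 peak. The number of sites counted in a chain is therefore the number of separable peaks and not the number of bound DNA motifs.

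Most chains were short. Chains of 3 numbered 1060, or 76.6% of all chains. There were 228 chains of 4, 58 of 5 and 29 of 6. Chains of 7 numbered 5 and chains of 8 numbered 2, and the longest chain held 9 sites. From the first to the last site a chain spanned a median of 2711 bp. The median span rose from 2540 bp in chains of 3 to 3735 bp in chains of 4 and 4980 bp in chains of 5. Together the chains spanned 4.02 Mb.

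Neighbouring sites of a chain lay a median of 1228 bp apart (quartiles 909 and 1583 bp, 3233 distances). The median was 1227 bp between replicate 1 summits and 1230 bp between replicate 2 summits. For the same pair of sites, the distances measured in the replicates differed by a median of 46 bp. The median spacing was slightly shorter in longer chains, with 1243 bp in chains of 3, 1228 bp in chains of 4, 1173 bp in chains of 5 and 1128 bp in chains of 6 or more.

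Very short distances were rare. Over all shared sites, the closest neighbours were 237 bp apart, and 99 of 44892 neighbouring pairs were closer than 500 bp. Per 100 bp of distance, the number of neighbouring pairs was highest between 900 and 1000 bp, with 719 pairs. It fell to 487 pairs between 1900 and 2000 bp, and 444 followed between 2000 and 2100 bp, so the limit of 2000 bp did not fall at a gap in the distances. The deposited peaks were at least 250 bp wide in replicate 1 and 220 bp in replicate 2, which limits how close separate peaks can lie.

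**Figure D1:**
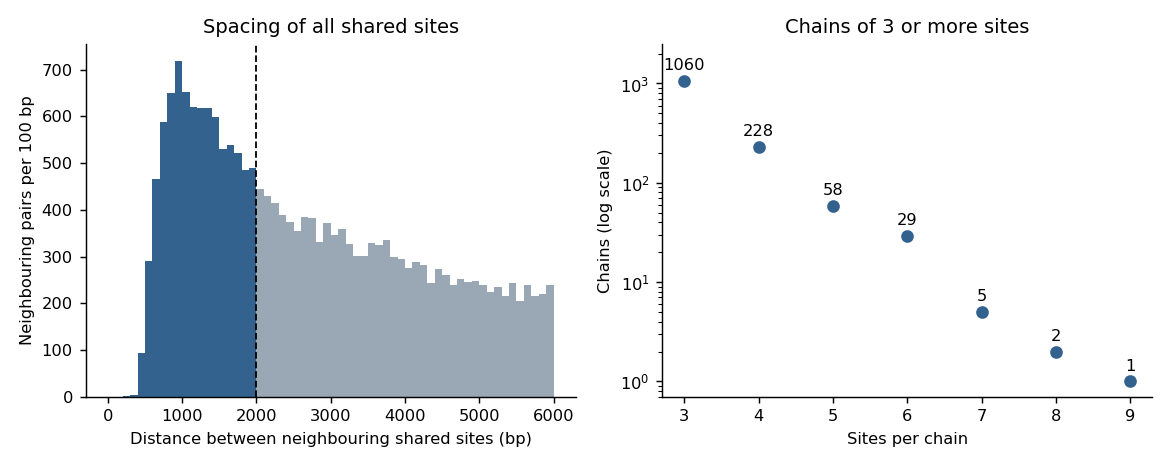
Left, the distance in bp between neighbouring shared sites up to 6000 bp, in steps of 100 bp, with distances within the limit of 2000 bp (dashed line) in blue and longer ones in grey. Right, the number of chains (log scale) by the number of their sites, from 1060 chains of 3 to 1 chain of 9. The distances peak just below 1000 bp and decline smoothly through the limit.

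At the limit itself, 3 pairs of sites exactly 2000 bp apart were joined. On chromosome 8 the sites at 17090319 and 17092319 had folds of 4.26 and 7.28 in replicate 1 and 11.5 and 8.51 in replicate 2, and belonged to a chain of 3. On chromosome 1 the pair at 50648620 and 50650620 also belonged to a chain of 3, and the pair on chromosome 14 at 5543725 and 5545725 stayed a pair. At 2001 bp, the sites at 9727701 and 9729702 on chromosome 4 were not joined although they were strong, with folds of 21.5 and 14.1 in replicate 1 and 39.6 and 18.3 in replicate 2. The other pairs 2001 bp apart, at 11185061 and 11187062 on chromosome 15 and at 24476240 and 24478241 on chromosome 13, were not joined either.

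The longest chain lay on chromosome 1 from 4011194 to 4021705, and its 9 sites were spread over 10511 bp. Fold enrichment is the summit pileup plus 1 over the local background plus 1, as the authors' peak caller gave it. In replicate 1 the folds, from the first site to the last, were 9.95, 18.2, 3.78, 2.90, 6.78, 6.28, 6.03, 9.80 and 5.28. In replicate 2 they were 18.2, 17.7, 9.60, 6.22, 8.93, 6.42, 9.40, 17.5 and 5.22. The chain thus had its high sites near both of its ends and lower ones between, and only its second site reached a fold of 10 in both replicates. The distances between its neighbours ran from 974 to 1868 bp.

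Both chains of 8 lay in the outer parts of their chromosomes, like the chain of 9. The one on chromosome 1 from 55139589 to 55146629 lay 97.0% along the span of that chromosome. Its last site was the highest in both replicates, with a fold of 20.4 (95% counting interval 16.2 to 25.3) in replicate 1 and 23.2 (18.7 to 28.6) in replicate 2. On chromosome 12, in the chain from 3420615 to 3428546, the second of the 8 sites was the highest, with 18.9 (15.0 to 23.5) and 21.4 (17.3 to 26.2). Its sixth site had the lowest fold in both replicates, at 2.74 and 5.75.

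Among the 5 chains of 7, the one on chromosome 18 from 2728572 to 2737004 held the strongest sites. Its folds in replicate 1 were 5.32, 34.3, 7.04, 45.9, 17.7, 7.46 and 37.3, and in replicate 2 they were 4.34, 54.8, 14.9, 38.6, 22.8, 14.7 and 32.4. High and low sites alternated for most of its length. The highest was site 4 in replicate 1 and site 2 in replicate 2. The summit pileups of those sites were close to each other, at 176 reads for site 2 and 199 for site 4 in replicate 1, and at 209 and 204 in replicate 2. Their local backgrounds were 4.17 and 3.36 reads in replicate 1 and 2.83 and 4.30 reads in replicate 2.

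The other chains of 7 had a flatter or a single-peaked profile, except on chromosome 9, where lower sites lay between high ones. On chromosome 17 from 5312358 to 5320791, site 3 had folds of 17.0 and 34.7, and the next highest, the last site, had 9.41 and 13.1. On chromosome 8 from 2777009 to 2783267, the fifth site had 16.8 and 20.2 and none of its neighbours reached a fold of 10 in both replicates. On chromosome 9 from 4121746 to 4127952, sites 2, 3 and 6 had replicate 1 folds of 18.1, 14.7 and 19.7 and replicate 2 folds of 27.6, 22.1 and 20.3. The chain on chromosome 18 from 1369287 to 1377038 was the weakest of the 5, with no site at a fold of 10 in both replicates.

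The chains of 6 with the highest median strength, the geometric mean of both folds, were on chromosomes 16 and 13. On chromosome 16 from 1217177 to 1223910, 4 of the 6 sites had a fold over 10 in both replicates, and the fifth had the lowest fold in each, at 4.84 and 3.03. On chromosome 13 from 37546470 to 37551901, site 4 had folds of 42.2 (36.1 to 49.1) and 33.1 (28.7 to 37.9), and site 5 had 16.8 and 27.4.

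**Figure D2:**
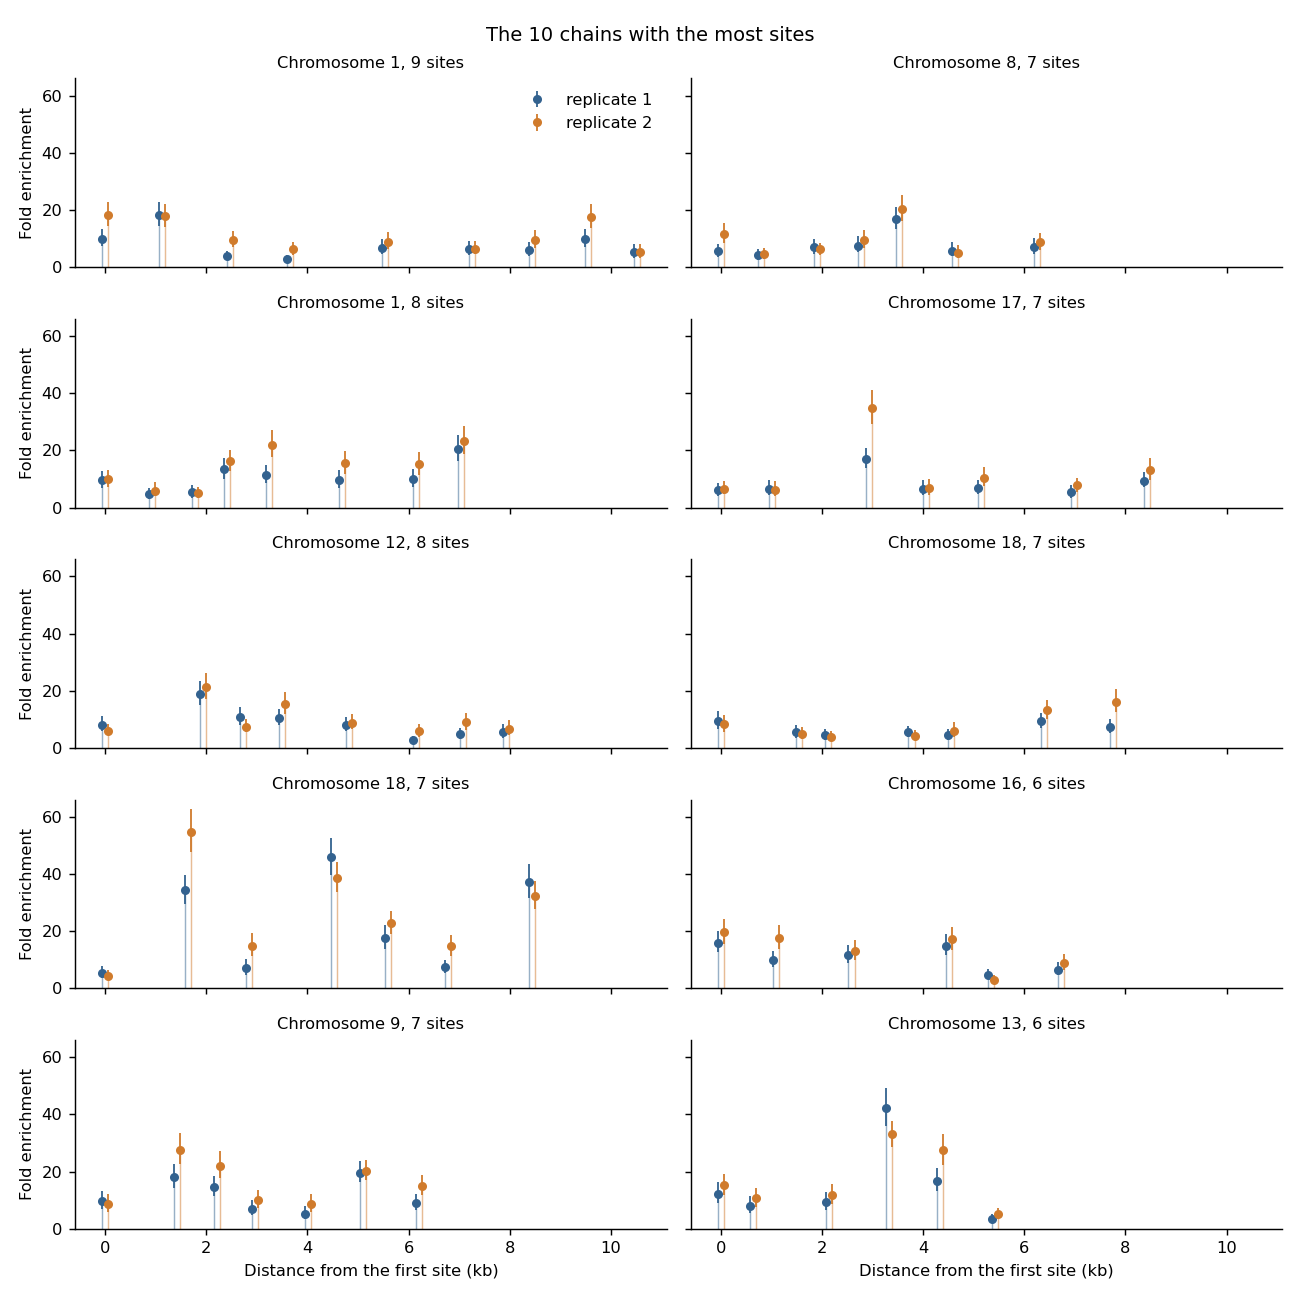
Fold enrichment of every site in the 10 chains with the most sites, against the distance in kb from the chain's first site, for replicate 1 (blue) and replicate 2 (orange, both drawn slightly apart). Bars are 95% counting intervals of the pileup with the background held fixed. In 6 of the 10 chains the same site was the highest in both replicates, and the chain of 9 spanned 10511 bp.

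Sites in chains had much the same enrichment as single sites. The median fold of the 4616 members was 7.02 in replicate 1 (quartiles 5.10 and 10.8) and 8.94 in replicate 2 (6.22 and 14.4). Single sites had medians of 7.04 (5.23 and 10.8) and 9.16 (6.42 and 14.2). By chain length, medians in replicate 1 were 7.04 for chains of 3, 6.81 for chains of 4, 6.88 for chains of 5 and 6.78 for longer ones. In replicate 2 they were 8.97, 8.96, 8.97 and 8.62. These steps were far smaller than the quartile ranges and smaller than the gap between the replicates.

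Sites with a fold of 10 were about as frequent in chains as elsewhere, and sites with a fold of 20 were slightly more frequent there. A fold of 10 or more in both replicates was reached by 1257 members, or 27.2% (95% Wilson interval 26.0 to 28.5), where 26.9% of all shared sites reached it. A fold of 20 or more in both was reached by 306 members, or 6.63% (5.95 to 7.38), where 5.88% of all shared sites did. For single sites these shares were 27.0% and 5.89%, and for sites in pairs 26.2% and 5.53%. The intervals treat sites as independent and cover counting error only. The members at a fold of 20 were 11.6% of all shared sites at that fold, where members were 10.3% of all shared sites.

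Other readouts of the members were close to those of single sites too. The median peak width was 439 bp in replicate 1 and 434 bp in replicate 2 for members, and 431 bp and 427 bp for single sites. Median summit pileups were 31 and 39 reads for members and 31 and 40 reads for single sites. Median local backgrounds were 3.29 and 3.35 reads for members and 3.36 and 3.35 reads for single sites. A background at least 1.5 times the lowest, genome-wide level in both replicates was found at 242 members (5.24%), where 5.58% of all shared sites had one. At 3 times that level, 0 of 4616 members were found, with an upper 95% Wilson limit of 0.0832%, where 0.0734% of all shared sites, 33 in number, were found.

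**Figure D3:**
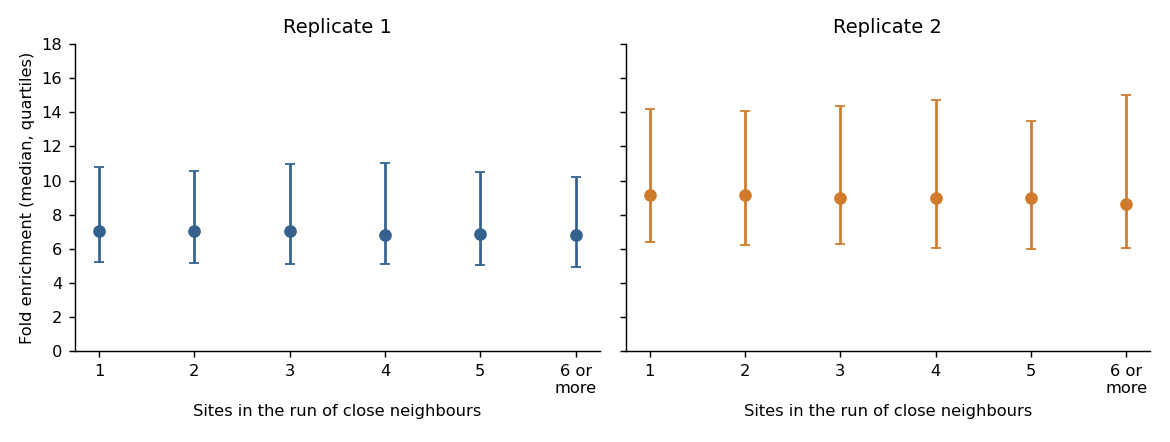
Median fold enrichment, with quartiles as bars, of single sites (1), sites in pairs (2) and sites in chains of 3, 4, 5 and 6 or more, for each replicate. The medians lie between 6.78 and 7.04 in replicate 1 and between 8.62 and 9.16 in replicate 2.

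The replicates differed in level in chains as they did elsewhere. Replicate 2 had the higher fold at 77.9% of members and 78.6% of single sites. The median log2 ratio of replicate 2 over replicate 1 was 0.32 (SD 0.43 across sites) for members and 0.34 (SD 0.43) for single sites. Across members, the log2 folds of the replicates had a Pearson's r of 0.865 over 4616 sites, and across single sites 0.855. Summits of the replicates lay a median of 28 bp apart in both classes.

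The strengths of neighbouring sites were at most weakly correlated. Across the 3233 neighbouring pairs in chains, the log2 strengths had a Pearson's r of 0.044, and across 36409 neighbours more than 2000 bp apart it was 0.015. Within chains r was -0.14 for 38 pairs up to 500 bp apart, -0.13 for 382 pairs between 500 and 750 bp, and 0.10 for 639 pairs between 1000 and 1250 bp. It was -0.047 between 750 and 1000 bp and 0.069 between 1250 and 1500 bp. From 1500 to 1750 bp it was -0.0023, and from 1750 to 2000 bp 0.076. No intervals were computed for r, so a change of sign with distance is not shown by these pairs. These pairs come from the same libraries, and an inner site of a chain enters 2 pairs. The strengths of neighbours in a chain differed by a median of 0.71 on the log2 scale, and those of distant neighbours by 0.70.

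The closest neighbours were the weakest and narrowest. Pairs in chains at most 500 bp apart numbered 38, and their sites had median folds of 5.06 in replicate 1 and 6.45 in replicate 2. Between 500 and 750 bp, the sites of 382 pairs had medians of 6.27 and 7.86. Between 1000 and 1250 bp, those of 639 pairs had medians of 7.35 and 9.40. Of the sites in the closest pairs, 2.63% reached a fold of 10 in both replicates, and of those 1000 to 1250 bp apart 30.8% did.

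Width moved with this difference. Median widths were 342 bp in replicate 1 and 331 bp in replicate 2 for the closest pairs, and 454 bp and 447 bp at 1000 to 1250 bp. Peaks of a list do not overlap, which limits the width of close neighbours, and the part of this limit in the lower folds was not tested. The chains of 4 or more with the smallest median spacing were examples. On chromosome 10 from 3348074 to 3350074, the 4 sites were 375, 1120 and 506 bp apart and had folds of 3.89, 5.59, 6.07 and 9.19 in replicate 1 and 2.78, 3.38, 6.23 and 8.13 in replicate 2. On chromosome 15 from 10940243 to 10943031, the 5 sites had a median spacing of 585 bp, and the first was the highest with 17.6 and 17.1. On chromosome 2 from 15189272 to 15191017, the 4 sites had a median spacing of 601 bp, and the last was the highest with 13.8 and 21.4.

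The strongest member had no fixed place in the chain. In the 1060 chains of 3, it was the first site along the chromosome in 32.5% (95% Wilson interval 29.7 to 35.3), the middle one in 33.6% (30.8 to 36.5) and the last in 34.0% (31.2 to 36.9), where an even split gives 33.3% each. Ranked by replicate 1 alone the middle site was the strongest in 33.8%, and by replicate 2 alone in 32.6%. In the 228 chains of 4 the shares were 22.8%, 25.0%, 25.4% and 26.8%. In these the last site led in 31.1% (25.5 to 37.4) by replicate 1 and in 23.7% (18.6 to 29.6) by replicate 2. Over all chains the strongest site was at an end in 846 of 1383, or 61.2% (58.6 to 63.7), where an even split over places gives 61.9%.

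Median levels differed little by place in chains of 3, and more in the long chains, which were few. In chains of 3, median folds of the first, middle and last sites were 6.96, 7.10 and 7.09 in replicate 1 and 8.70, 9.05 and 9.20 in replicate 2. In the 58 chains of 5, medians by place ran from 6.53 to 7.79 in replicate 1 and from 8.19 to 10.3 in replicate 2. In the 29 chains of 6 they ran from 5.66 at place 5 to 8.54 at place 3 in replicate 1, and from 7.35 at place 6 to 10.6 at place 3 in replicate 2. The quartile ranges of these places overlapped. In replicate 1 they were 4.77 to 8.08 at place 5 and 5.90 to 12.7 at place 3. In replicate 2 they were 5.71 to 10.1 at place 6 and 8.70 to 16.0 at place 3. End sites of all chains had medians of 6.97 and 8.88, and inner sites 7.07 and 9.04. Inner and end sites had the same median width in replicate 1, 439 bp, and widths of 436 bp and 433 bp in replicate 2.

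**Figure D4:**
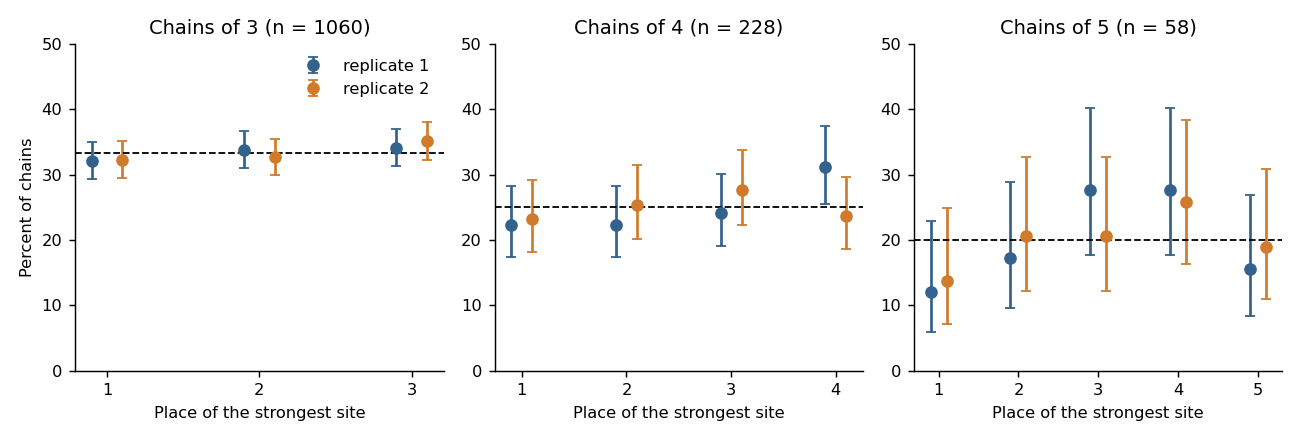
Share of chains, in percent, in which the site at each place along the chromosome was the strongest, for chains of 3, 4 and 5, ranked in replicate 1 (blue) and replicate 2 (orange). Bars are 95% Wilson intervals over chains and the dashed line is an even split. For chains of 3 the shares lie between 32.1% and 35.1%.

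The replicates shared the strongest site in most chains, but seldom where its lead over the second site was small. The same site was the strongest in both in 1057 of 1383 chains, or 76.4% (74.1 to 78.6), where an even draw within each chain gives 30.9%. By length the share was 76.9% in chains of 3, 74.1% in chains of 4 and 74.1% in chains of 5. In chains of 6 or more it was 30 of 37, or 81.1% (65.8 to 90.5). Where the strongest site was under 1.2 times as strong as the second, the replicates shared it in 91 of 343 chains, or 26.5% (22.1 to 31.4). At a ratio of 1.2 to 2 they did in 610 of 684 (89.2%), and at 2 or more in 356 of 356. The ratio was taken from the folds of both replicates, so it is not independent of their agreement.

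A site chosen in 1 replicate stood out in the other, which had not chosen it. The strongest sites by replicate 1 had a median fold of 15.6 in replicate 2 (quartiles 10.5 and 22.8), and the other members of their chains 7.54 (5.59 and 10.6). In 89.2% of the chains the chosen site was above the median of the rest, by a median ratio of 1.85. In the opposite direction, sites chosen in replicate 2 had a median fold of 11.9 in replicate 1, against 5.96 for the rest. They were above the median of the rest in 89.7% of the chains.

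Most chains had few strong sites. A fold of 10 or more in both replicates was reached by 27.2% of members, close to the 26.9% of all shared sites. The counts per chain below were not compared with a draw at that share. No site with a fold of 10 or more in both replicates was present in 500 chains (36.2%), 1 such site in 570 (41.2%), 2 in 258 (18.7%), 3 in 49 and 4 in 6. Every site was at that level in 27 chains, none of which had more than 4 sites. The strongest member of a chain had a median strength of 14.0, and it was a median of 1.50 times as strong as the second (quartiles 1.21 and 2.02). In 25.7% of the chains the ratio was 2 or more.

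The 5 strongest members were all in chains of 3, which held 3180 of the 4616 members. On chromosome 10 from 43748147 to 43750165, the middle site had a fold of 55.0 (48.0 to 62.8, 218 reads) in replicate 1 and 61.2 (53.7 to 69.5, 236 reads) in replicate 2. Its neighbours, 724 bp before and 1294 bp after, had folds of 5.78 and 5.03 in replicate 1 and 6.05 and 4.45 in replicate 2. With a ratio of 9.82, this chain also had the steepest step from its strongest to its second site. On chromosome 7 from 2729606 to 2732028, the middle site had 65.8 (58.3 to 74.0) and 50.8 (45.1 to 57.0), and its neighbours had 8.29 and 11.8 in replicate 1 and 12.6 and 20.4 in replicate 2.

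Steep chains with a dominant middle site also lay on chromosomes 13 and 8. On chromosome 13 from 34085598 to 34088268, the middle site had folds of 59.6 and 53.9, and the last 18.4 and 20.9. On chromosome 8 from 16772996 to 16775101, the middle site had 56.6 in both replicates, and its neighbours had 4.52 and 6.98 in replicate 1 and 4.35 and 8.82 in replicate 2. On chromosome 13 from 42708610 to 42711316, the middle site had 34.6 and 47.0 between neighbours of 4.36 and 5.60 in replicate 1 and 5.39 and 4.29 in replicate 2. In the chain on chromosome 18 from 2683559 to 2685350, the first site was the dominant one, with 45.5 and 65.8.

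The strongest site was under 1.2 times as strong as the second in 343 chains (24.8%). Among chains whose strongest site had a fold of 20 or more in both replicates, the 3 with the smallest ratio were as follows. On chromosome 17 from 38979283 to 38981103, the 3 sites had folds of 20.9, 31.5 and 27.4 in replicate 1 and 30.8, 30.7 and 34.3 in replicate 2. Each of these was strong, and the replicates named different sites as the highest. On chromosome 13 from 34510418 to 34514505, sites 3 and 4 of its 4 sites had 22.8 and 18.8 in replicate 1 and 28.4 and 33.9 in replicate 2. On chromosome 14 from 5003769 to 5007895, sites 3 and 4 of its 4 sites had 21.7 and 22.9 in replicate 1 and 32.6 and 32.5 in replicate 2, while the second had 3.87 and 6.98.

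Chains were found on all 20 chromosomes. Of the members, 4593 lay on chromosomes and 23 on 6 scaffolds. The share of shared sites that were in chains was highest on chromosome 17, at 331 of 2458 or 13.5% (95% Wilson interval 12.2 to 14.9), and lowest on chromosome 18, at 178 of 2124 or 8.38% (7.28 to 9.64). Chromosomes 6 and 14 followed at 11.8% and 11.7%. Per Mb of span, taken to the last deposited peak, chromosome 17 had 2.31 chains and chromosome 18 had 0.914.

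The share in chains did not simply follow the density of sites on a chromosome. Chromosome 13 was the densest, with 71.4 shared sites per Mb, but 9.56% of its sites (313) were in chains. Chromosome 14 had 38.1 sites per Mb and 11.7% in chains. On chromosome 17 the density was 59.1 per Mb, and on chromosome 18 it was 36.6.

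A larger share of the chains than of the single sites lay towards the chromosome ends. The outer 40% of the chromosomes (20% at either end) contained 1041 of 1376 chains, or 75.7% (73.3 to 77.8), and 66.9% (66.4 to 67.5) of the single sites. The share was 75.7% for chains of 3, 73.2% for chains of 4 and 75.4% for chains of 5. For chains of 6 or more it was 33 of 37, or 89.2% (75.3 to 95.7). The middle 20% held 53 chains, or 3.85% (2.96 to 5.00), and 6.46% of the single sites. Chromosome 13 stood apart, with 38.7% of its members in the outer parts, while on the other chromosomes 61.5% to 91.4% were there. The outer share of all shared sites was not computed by chromosome. These values therefore do not show whether the low share on chromosome 13 was particular to its chains.

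Along the chromosome, the share of shared sites that were in chains was highest in the first 10% of the span, at 12.7% (12.0 to 13.4), and lowest just past the centre, between 50% and 60% of the span, at 5.32% (4.17 to 6.76). In the last 10% it was 10.8% (10.2 to 11.5). The last megabase at either end held 360 members, which were 10.0% of the shared sites there, where 10.3% of all shared sites were members. Of the members on chromosomes 7.84% lay in that megabase, and of the single sites 7.97% did, so the larger share of chains in the outer parts was not found in the last megabase.

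Local site density moved with membership. Within 100 kb of a member there was a median of 20 shared sites outside its own chain (quartiles 14 and 25), and within 100 kb of a single site 17 (10 and 23). Of the 11240 sites with the fewest such neighbours, 0 to 11, 6.17% (5.74 to 6.63) were in chains, and of the 11240 with the most, 23 to 50, 12.9% (12.3 to 13.5) were. For sites with 11 to 18 such neighbours the share was 9.40% (8.87 to 9.95), and for those with 18 to 23 it was 12.6% (12.0 to 13.2). The share thus rose little among the denser sites. The part of density in the difference between chromosome ends and middles was not tested. Neither mappability nor gene content was corrected for.

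**Figure D5:**
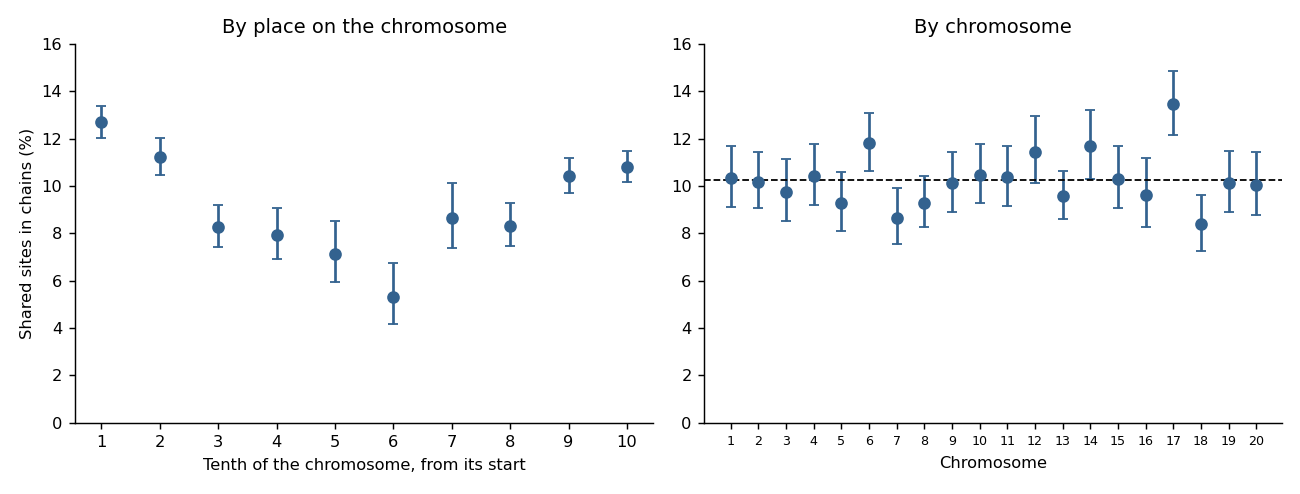
Share of shared sites that were in chains, in percent with 95% Wilson intervals, by steps of 10% of the chromosome span (left) and by chromosome (right, with the share over all sites, 10.3%, as a dashed line). The share falls from 12.7% in the first step to 5.32% just past the centre, and chromosome 17 is the highest at 13.5%.

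The distances between chains varied widely, from 2105 to 21852221 bp, and they were not compared with an even scatter. The median distance from the end of a chain to the start of the next on the same chromosome or scaffold was 225182 bp (quartiles 81096 and 521190 bp). The next chain began within 10 kb in 65 of 1357 cases.

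Some deposited peaks inside the chains were not part of a shared site. Replicate 1 had 47 such peaks, in 47 chains, with a median fold of 4.26, and replicate 2 had 128, in 125 chains, with a median fold of 4.96. Of these, 23 in replicate 1 and 46 in replicate 2 overlapped a peak of the other list that had a better partner. The strongest had folds of 15.3 and 17.5. Counted inside and outside chains, peaks without a shared site numbered 3232 for replicate 1 and 17381 for replicate 2. Their median folds were 4.45 and 4.88, and the full lists held 48191 and 62340 peaks.

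Chains built from 1 list alone were looked up in the other list, which had no part in choosing them. The replicate 1 list alone gave 1724 chains with 5805 sites, of which 93.5% (92.9 to 94.1) overlapped a replicate 2 peak. Of 30716 single sites of that list, 93.9% (93.7 to 94.2) did. The replicate 2 list alone gave 3258 chains with 11354 sites, of which 74.7% (73.9 to 75.5) overlapped a replicate 1 peak, and 72.9% (72.5 to 73.4) of its 34340 single sites did. Below a fold of 5 in replicate 2 the shares were 39.6% (37.8 to 41.5) in chains and 34.1% (33.1 to 35.2) among single sites. Below a fold of 5 in replicate 1 there was no such excess, with 80.5% (78.4 to 82.4) in chains and 81.3% (80.4 to 82.2) among single sites. At a fold of 10 or more in replicate 2 the shares were 99.7% in both.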

How the data were processed

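ChIP and input chromatin of mid-maturation soybean embryos were sequenced, and 1 peak list per ChIP sample was used. Per the submitters' processing notes, Bowtie 0.12.7 (a read aligner) and MACS2 (a peak caller) were used; the sources used here give no genome build, MACS2 version or calling threshold. Input files were not analysed here. Fold enrichment, as deposited, is the ratio of summit pileup to local background with 1 added to each, a form that all deposited values met. Each peak also has a deposited −log10 p-value, a deposited −log10 q-value and a deposited score, the last of which entered no result. All deposited peaks had q of at most 0.00871.

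Shared sites, chains, positions and strengths were computed in Python 3.11.15 as described in the results. Whole-number pileups and backgrounds were solved from fold and p-value, within 0.001 on the −log10 scale, for 100% of peaks in both lists. Counting intervals are exact Poisson intervals of the pileup with the background held fixed, and Wilson intervals treat sites or chains as independent. Both cover counting error only. The code was tested on simulated data.

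The members were chosen with earlier results of these data known. The named chains are the 10 with the most sites, the 5 with the strongest member, the 3 largest and 3 smallest ratios of strongest to second member where the strongest had a fold of 20 or more in both replicates, and the 3 of at least 4 sites with the smallest median spacing. Alternatives were chain limits of 1000 and 3000 bp, a larger overlap, a fold of 5, 1 list alone, chromosomes only and, added after seeing the data, summits of 1 replicate.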

Additional observations from a re-analysis of the deposited data

How the results depend on the processing

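Of 70 recomputed values, 50 stayed within their spread or, for counts, within 1.5 times. A chain limit of 1000 bp gave 558 members in 179 chains, the longest of 5 sites, with a median spacing of 774 bp. The middle site was then strongest in 29.0% of chains of 3, and the replicates shared the strongest site in 73.2% of chains. These shares rest on at most 179 chains, and no intervals were computed at that number. A limit of 3000 bp gave 8903 members in 2534 chains, the longest of 16 sites, with a spacing of 1546 bp. Longer limits join more sites by construction. A fold of at least 5 in both lists left 1977 members in 612 chains, with a spacing of 1276 bp, a median strength of 9.76 and 77.3% of members in the outer parts. Leaving out replicate 1 gave 11354 members in 3258 chains, and leaving out replicate 2 gave 5805 in 1724, with longest chains of 10 sites in each and spacings of 1131 and 1189 bp. Where a list stood alone, strength was its own fold and not the geometric mean of both folds. Median strengths were then 7.22 without replicate 1 and 6.58 without replicate 2. In the same order, the middle site was strongest in 32.9% and 32.2% of chains of 3, and 75.1% and 76.2% of members lay in the outer parts. With 1 list the agreement of the replicates on the strongest site has no value. Positions from the replicate 2 summits, an alternative added after seeing the data, gave a spacing of 1230 bp. The number of chains depends on the limit and on the list, and the depth behind weak peaks, 11 reads at the least, limits which sites enter. No paired analysis was possible because input files were not analysed here, so ChIP and input samples of the same number could not be set against each other.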
